A study of Mus musculus with 8 samples.

Results

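Hox genes encode homeodomain transcription factors, and 39 of the 32285 genes in the count tables carry a Hox symbol of cluster a, b, c or d followed by a paralog number. All 39 held at least 1 unique molecular identifier (UMI, one counted RNA molecule) in cells that passed the filters. Of these, 32 held at least 100 UMIs, and the other 7 (Hoxb1, Hoxc5, Hoxc8, Hoxc11, Hoxc12, Hoxc13 and Hoxd1) held between 1 and 67 UMIs each. The rule reads the symbol alone.

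The study built assembloids, in which mouse colon organoids and cultured primary colon stromal cells were combined in Matrigel, and profiled them by droplet single-cell RNA sequencing beside organoids and colon tissue. The 8 libraries fall into 4 groups of 2. Assembloid stroma is the stromal cells of assembloids, which the study's text calls EpCAM-negative without stating for these libraries how they were separated, and assembloid epithelium, organoid epithelium and tissue epithelium are the 3 epithelial groups. Organoids are epithelium grown alone in full medium that supplies surrogate Wnt, CHIR-99021, R-spondin 1 and noggin, and assembloids were kept in medium without these factors. All cells came from young adult male C57BL/6 mice, with no treatment or altered gene named for any library, and the stromal and organoid cells had been expanded in culture before they were combined. Stroma was taken from assembloids and not from tissue, so the stromal classes below are cultured cells. The study's methods call the 2 libraries of a group biological replicates and derive the stromal libraries from separate mice, but the labels do not tie any other library to an animal.

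Along the vertebrate body the 4 Hox clusters are read in order. Genes of low paralog number, at the 3′ end of a cluster, are switched on early and anteriorly, and genes of high number later and posteriorly, so that the set of active genes records the position of a cell along the axis. In the gut this code is laid down in the embryo in mesoderm and endoderm, and adult cells keep much of it. Posterior genes such as Hoxb13, Hoxa13 and Hoxd13 mark hindgut-derived tissue, whereas enteric neurons and glia descend from neural crest that enters the gut mainly from the hindbrain level. In GRCm38 (GENCODE M21) the Hoxa cluster lies at chr6:52155590-52260880 with 11 genes, Hoxb at chr11:96194316-96368256 with 10, Hoxc at chr15:102921103-103036852 with 9 and Hoxd at chr2:74668310-74765142 with 9. Hoxb13 is separated from Hoxb9 by 74009 bases, while Hoxb9 to Hoxb1 together span 96800.

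Between 4310 and 29410 cells per library passed the filters, with 36970661 to 187583982 UMIs, and the Hox genes made up 217 to 541 CPM of these, CPM being a gene's UMIs scaled to the depth of the library. The tissue libraries kept 38.7% and 25.4% of their barcodes, the lowest shares of the 8. Pairs of libraries shared 6 to 76 cell barcodes. Cells were assigned to classes by lists of 10 marker genes and are named here by the gate they passed, and levels are given as CPM of all UMIs of that class in that library. Cells with markers of several classes stayed outside every class.

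In the epithelium, both cultures held far more RNA of the middle of the Hoxb cluster than the tissue did. Hoxb6 stood at 14 and 19.4 CPM in the assembloid libraries and 21 and 58.2 CPM in the organoid libraries, against 1.21 and 0.758 CPM in tissue. Hoxb7 stood at 12.3 and 11.9 CPM in assembloids, 22.9 and 18.8 CPM in organoids and 0.341 and 0.433 CPM in tissue. Hoxb8 was at 4.84 and 6.07 CPM in assembloids, 9.28 and 14.5 CPM in organoids and 0.106 and 0.352 CPM in tissue. For all 3 genes every cultured library lay above both tissue libraries, and the groups did not overlap, which held for 47.3% of all genes tested (16.1% with the cultures higher, 31.1% with the cultures lower). Hoxb3, Hoxb4 and Hoxb5 had the same order, with tissue levels of 0.217 to 0.468 CPM, assembloid levels of 2.28 to 5.10 CPM and organoid levels of 6.04 to 23.1 CPM.

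Against tissue, edgeR's quasi-likelihood test called each gene from Hoxb3 to Hoxb8 higher in both cultures (adjusted p over all genes, Benjamini-Hochberg). In assembloids the log2 fold changes ran from 3.59 (SE 0.56, adjusted p = 0.0015) for Hoxb3 to 5.37 (SE 0.33, adjusted p = 2.9e-05) for Hoxb7. In organoids they ran from 5.0 (SE 0.45, adjusted p = 9.9e-05) for Hoxb5 to 6.02 (SE 0.34, adjusted p = 1.3e-05) for Hoxb7. Hoxb2 had no UMI in tissue epithelium and 164 and 187 UMIs in the cultures. With a floor of 3 UMIs over the tissue group, that made Hoxb2 at least 17.1-fold higher in assembloids and at least 18.7-fold higher in organoids. Summed over Hoxb3 to Hoxb8, the level was 39.0 and 50.5 CPM in assembloids, 73.1 and 146 CPM in organoids and 2.90 and 2.36 CPM in tissue. Organoid library 2 was the highest for 5 of these 6 genes, Hoxb7 being the exception.

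The far 5′ end of the same cluster did not follow. Hoxb13, the most posterior gene of its cluster, stood at 244 and 257 CPM in tissue and fell to 51.8 and 63.2 CPM in assembloids and 75.1 and 37.9 CPM in organoids. The log2 fold change was -1.73 (SE 0.39, edgeR adjusted p = 0.0071) in assembloids and -1.85 (SE 0.39, edgeR adjusted p = 0.0053) in organoids. Hoxb9, the neighbour of Hoxb8, was not called in either culture, with 33.0 and 44.9 CPM in assembloids, 36.6 and 57.3 CPM in organoids and 56.6 and 51.7 CPM in tissue. Its log2 fold changes were -0.09 (SE 0.20) and -0.0020 (SE 0.20). Within one cluster, Hoxb2 to Hoxb8 were thus called higher, Hoxb9 was not called and Hoxb13 was called lower.

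**Figure D1:**
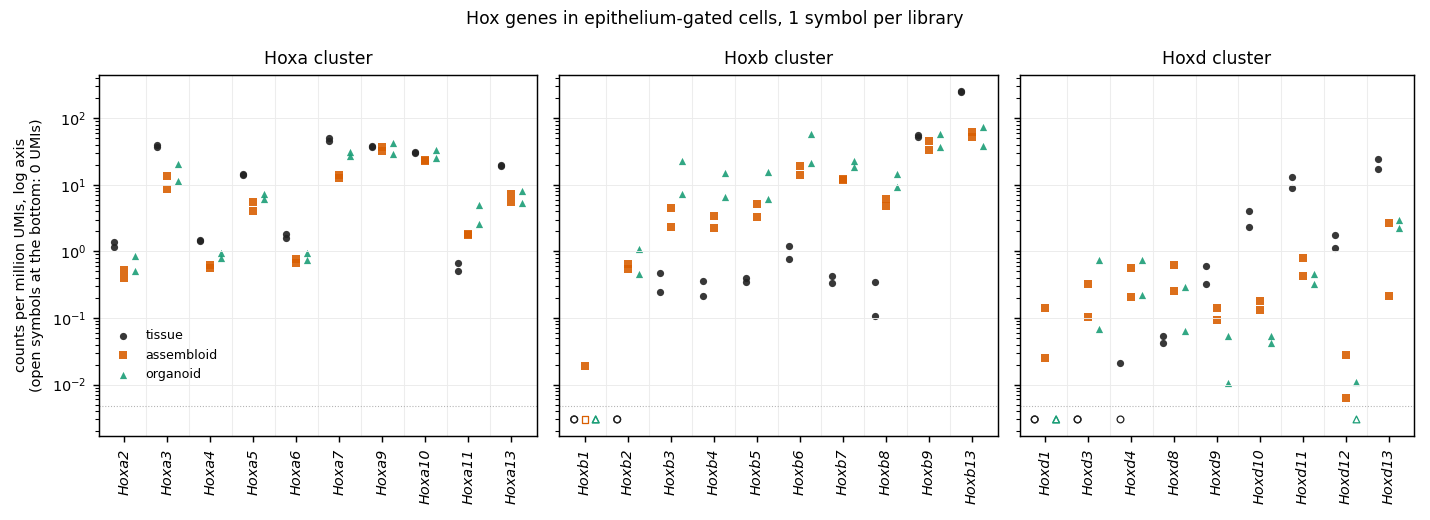
Level of Hoxa, Hoxb and Hoxd genes (CPM, logarithmic axis) in the epithelium-gated cells of the 6 epithelial libraries, by paralog number, with 1 symbol per library and open symbols at the bottom for 0 UMIs. The tissue libraries lie below all cultured libraries from Hoxb3 to Hoxb8 and above them for Hoxb13 and from Hoxd10 to Hoxd13.

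The promoters of 4 genes are shown because these genes stand for both directions of change: Hoxb4 and Hoxb8 were called higher in both cultures, and Hoxd12 and Hoxa13 lower. Each sequence is the 250 bases before the transcription start in RefSeq (GRCm38.p6), read on the strand of the gene. Capitals mark TTTAT, the core letters of sites that Cdx proteins bind, and TGATTNAT, the joint site of Pbx and Hox proteins, on either strand. Hoxb4 lies at chr11:96318017-96318266 on the plus strand, Hoxb8 at chr11:96281655-96281904 on the plus strand, Hoxd12 at chr2:74674763-74675012 on the plus strand and Hoxa13 at chr6:52260881-52261130 on the minus strand.
Hoxb4: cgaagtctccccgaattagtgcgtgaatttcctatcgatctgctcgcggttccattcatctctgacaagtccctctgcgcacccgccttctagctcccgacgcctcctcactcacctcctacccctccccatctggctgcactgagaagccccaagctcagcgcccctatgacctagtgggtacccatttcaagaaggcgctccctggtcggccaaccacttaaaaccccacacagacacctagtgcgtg
Hoxb8: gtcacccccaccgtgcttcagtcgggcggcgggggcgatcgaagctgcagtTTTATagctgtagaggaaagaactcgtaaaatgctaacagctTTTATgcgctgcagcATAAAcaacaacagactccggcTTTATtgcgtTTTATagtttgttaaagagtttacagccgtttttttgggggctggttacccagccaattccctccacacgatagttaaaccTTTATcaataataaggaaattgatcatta
Hoxd12: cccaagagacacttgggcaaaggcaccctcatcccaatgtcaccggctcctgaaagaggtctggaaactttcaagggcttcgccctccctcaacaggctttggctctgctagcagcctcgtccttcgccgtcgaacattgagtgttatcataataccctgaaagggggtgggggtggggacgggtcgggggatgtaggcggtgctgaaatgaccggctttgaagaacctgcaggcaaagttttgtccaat
Hoxa13: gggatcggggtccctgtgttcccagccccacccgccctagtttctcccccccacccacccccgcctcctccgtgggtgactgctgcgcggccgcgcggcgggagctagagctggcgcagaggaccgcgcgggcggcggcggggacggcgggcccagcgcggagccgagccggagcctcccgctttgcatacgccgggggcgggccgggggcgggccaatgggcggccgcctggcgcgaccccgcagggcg

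The Hoxb8 window held TTTAT 6 times, and the other 3 windows held neither motif. The windows of 22 of the 39 Hox genes could be matched in the table, 24 windows in all, and TTTAT was found in 9 of them (37.5%), a share like that among all 32851 promoter windows (37.3%). TGATTNAT was found in 2 of the 24 (8.33%), against 2.83% of all windows. The median Hox window held 12.5 CG dinucleotides and the median of all windows 6. A match is a string of letters and not a measured site.

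Hoxd10 to Hoxd13, at the 5′ end of Hoxd, were lower in both cultures. Hoxd13 stood at 24.8 and 17.0 CPM in tissue, 0.217 and 2.66 CPM in assembloids and 2.28 and 2.98 CPM in organoids. Hoxd11 stood at 13.2 and 8.88 CPM in tissue, and at 0.324 to 0.791 CPM in the 4 cultured libraries. Hoxd10 stood at 4.07 and 2.33 CPM in tissue and at 0.043 to 0.179 CPM in culture. No cultured library reached the lower tissue library for any of these genes, as for 31.1% of all genes tested. The log2 fold changes in assembloids were -3.57 (SE 0.84, edgeR adjusted p = 0.0090) for Hoxd13, -3.81 (SE 0.42) for Hoxd11, -3.98 (SE 0.47) for Hoxd10 and -6.03 (SE 0.83) for Hoxd12. In organoids they were -2.77 (SE 0.80, edgeR adjusted p = 0.022) for Hoxd13, -4.54 (SE 0.44) for Hoxd11 and -5.79 (SE 0.53) for Hoxd10. Hoxd12 held 123 UMIs in tissue and 1 in organoids, a ratio of 411 (95% exact counting interval 72.4 to 16362), and Hoxd9 was called lower in organoids (log2 fold change -3.78, SE 0.76) but not in assembloids (-1.61, edgeR adjusted p = 0.071). Hoxd10 and Hoxd11 each share exon bases with the gene model Gm28309 on the same strand, so some of their reads could have been assigned elsewhere. Without either organoid library, or without tissue library 1, Hoxd13 was no longer called in organoids, with adjusted p between 0.086 and 0.15 in edgeR, and the Hoxd9 call was lost without organoid library 1 or tissue library 1 (0.054 and 0.062).

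Hoxd3 and Hoxd4, 3′ genes of Hoxd, were nearly silent in tissue and called higher in both cultures, where their UMIs were also few. Hoxd4 had 1 UMI in tissue, 92 in assembloids and 109 in organoids, and was called higher in both, with ratios of 28.8 (exact counting interval 5.05 to 1151) and 32.6 (5.73 to 1300.2). Hoxd3 had no UMI in tissue, so that it was at least 5.33-fold higher in assembloids and at least 8.18-fold higher in organoids. Hoxd3 and Hoxd4 share exons with each other and their reads could be split between them. Hoxd8 was called higher in assembloids (log2 fold change 3.52, SE 0.90), at 0.254 and 0.631 CPM against 0.043 and 0.054 CPM. In organoids Hoxd8 was not called (1.95, SE 0.94), at 0.0640 and 0.291 CPM. The Hoxd3 call was lost in both cultures without either tissue library, in assembloids also without assembloid library 2 and in organoids without organoid library 2 (edgeR adjusted p between 0.069 and 0.12). The Hoxd8 call in assembloids was lost without either tissue library (0.097 and 0.071).

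In Hoxa most genes were not called, and most of those called were lower. Hoxa3 stood at 39.7 and 37.3 CPM in tissue, 8.62 and 13.4 CPM in assembloids and 11.4 and 20.8 CPM in organoids. Hoxa13 stood at 19.1 and 19.6 CPM in tissue, 5.53 and 7.34 CPM in assembloids and 8.14 and 5.27 CPM in organoids. Hoxa5 stood at 14.2 and 14.7 CPM in tissue and at 4.08 to 7.26 CPM in culture. These 3 genes were called lower in both cultures, with log2 fold changes of -1.43 to -1.21 in assembloids and -1.25 to -0.88 in organoids. Leaving out either tissue library lost the Hoxa13 call in both cultures, as did leaving out assembloid library 1 in assembloids, with edgeR adjusted p between 0.054 and 0.063. In organoids the Hoxa5 call was lost without either tissue library (0.074 and 0.089) and the Hoxa3 call without tissue library 1 (0.058). Hoxa3 shares exon bases with the gene model Gm28308, and Hoxa9 with Mir196b. Hoxa7 was called lower in assembloids (log2 fold change -1.44, SE 0.22, edgeR adjusted p = 0.0013), at 12.8 and 14.1 CPM against 46.2 and 50.0 CPM, and missed the threshold in organoids (-0.47, SE 0.22). Hoxa11 was the 1 member of the cluster called higher, by 2.01 (SE 0.47) and 2.97 (SE 0.48) on the log2 scale, at 1.78 and 1.82 CPM in assembloids and 4.93 and 2.59 CPM in organoids against 0.660 and 0.514 CPM in tissue. Without tissue library 2 it was not called in assembloids (edgeR adjusted p = 0.066). Hoxa9 and Hoxa10 were not called, with log2 fold changes of 0.01 to 0.27 and library levels of 22.8 to 42.3 CPM in all 6 libraries. Hoxa2, Hoxa4 and Hoxa6 were tested and not called in any epithelial comparison, at 0.465 to 1.71 CPM as group means.

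Hoxc was silent in the epithelium. No UMI of any of the 9 Hoxc genes was found in organoid or tissue epithelium, and the sums in assembloid epithelium were 0.149 and 0.0377 CPM. No Hoxc gene passed the filter for testing.

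Counted over the family, 28 of the 39 genes were tested in the epithelium. In assembloids 11 were called higher and 9 lower than in tissue, while 48.9% of all 19170 genes tested were called (26.2% higher, 22.8% lower). In organoids 10 were called higher and 9 lower, while 46.9% of all genes were called (24.1% higher, 22.8% lower). The median log2 fold change of the tested Hox genes was -0.04 in assembloids and 0.09 in organoids, beside 0.03 and 0.06 over all genes. By cluster, Hoxa had 1 gene higher and 4 lower of 11 in assembloids and 1 higher and 3 lower in organoids, a share no larger than that of all genes. Hoxb had 7 genes higher and 1 lower of 9 in each culture. Hoxd had 3 higher and 4 lower of 8 in assembloids and 2 higher and 5 lower in organoids. Both comparisons use the same tissue libraries. Scaling by library size alone in place of TMM, edgeR's trimmed mean of M values, shifts the log2 fold changes: the TMM values lie 0.39 above those scaled by library size in assembloids and 0.23 above them in organoids. With library size alone 11 Hox genes were called higher and 13 lower in assembloids and 10 and 10 in organoids, and no called gene changed direction.

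**Figure D2:**
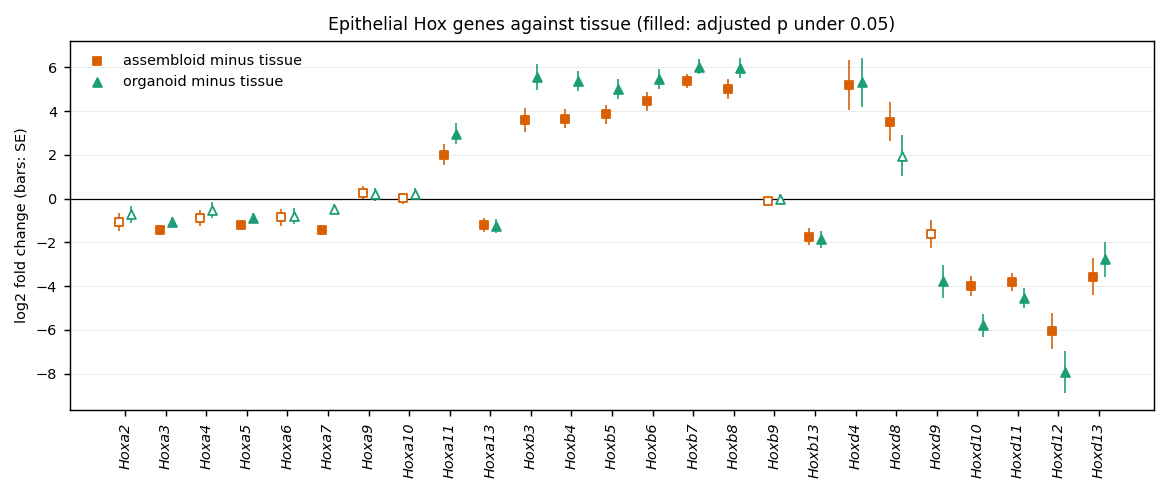
Log2 fold change (edgeR, symbols with standard error) of tested Hox genes against tissue epithelium, for assembloids and organoids, by cluster and paralog number. Filled symbols passed the threshold, and Hoxb2 and Hoxd3, with 0 UMIs in tissue, are left out. Genes from Hoxb3 to Hoxb8 lie above 3 and genes from Hoxd10 to Hoxd13 below -2 in both cultures.

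The cultures were also compared with each other. Of the 28 genes, 6 were called higher and 2 lower in organoids than in assembloids, where 52.3% of all genes were called (24.1% higher, 28.2% lower), and the median log2 difference was 0.35 against -0.01 over all genes. Hoxa7 was higher in organoids, at 31.3 and 26.9 CPM against 12.8 and 14.1 CPM (log2 difference 0.97, SE 0.22, edgeR adjusted p = 0.0069). Hoxb4 was higher as well, at 6.52 and 15.3 CPM against 2.28 and 3.46 CPM (1.72, SE 0.36, edgeR adjusted p = 0.0049). These 2 calls held in every alternative. Hoxb3, Hoxb5, Hoxb6 and Hoxb8 were called higher by 0.94 to 1.94, but none of these 4 calls held without organoid library 2, where the differences were 0.38 to 1.18 (edgeR adjusted p between 0.082 and 0.28). Hoxb5, Hoxb6 and Hoxb8 were also lost without assembloid library 1 (0.092 to 0.14) and Hoxb8 without organoid library 1 (0.094). Hoxd9 and Hoxd10 were called lower in organoids on 7 and 13 UMIs. The Hoxd10 call was lost without either organoid library (0.085 and 0.066), and that of Hoxd9 without organoid library 1, assembloid library 2 or either tissue library (0.085 to 0.25). Hoxb7, Hoxb9 and Hoxb13 were not called (log2 differences 0.64, 0.09 and -0.12). With library-size scaling the split was 7 higher and 1 lower.

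Carried-over stromal RNA was measured beside these values. Summed over 6 genes of fibroblasts that took no part in the gates (Col5a1, Col5a2, Col6a1, Bgn, Sparc and Fstl1), the epithelium-gated cells of the assembloid libraries held 106 and 14.3 CPM, which is 1.98% and 0.232% of the level in fibroblasts of the same libraries. The summed Hoxb3 to Hoxb8 level in the same epithelial cells was 39.0 and 50.5 CPM, beside 45.1 and 51.2 CPM in those fibroblasts. The organoid libraries, in which no cell passed the fibroblast gate, held 0.112 and 0.140 CPM of the 6 genes. For Hoxb2, at 0.656 and 0.546 CPM in assembloid epithelium, the share carried over from stroma was not tested.

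The change was also seen per cell. With every cell thinned to 2000 UMIs, a UMI of any gene from Hoxb3 to Hoxb8 was found in 7.18% (95% exact interval 6.83 to 7.54) and 8.95% (8.24 to 9.70) of assembloid epithelial cells. The share was 12.8% (11.9 to 13.8) and 22.4% (21.2 to 23.6) in organoids and 0.369% (0.169 to 0.700) and 0.362% (0.174 to 0.664) in tissue. Hoxb13 was found in 9.47% (9.07 to 9.88) and 11.3% (10.5 to 12.2) of assembloid cells, 13.4% (12.5 to 14.4) and 7.22% (6.49 to 8.0) of organoid cells and 35.6% (33.7 to 37.6) and 35.4% (33.6 to 37.2) of tissue cells. In stromal fibroblasts, at the same depth, Hoxb13 was found in 0.0262% (0.00318 to 0.0948) and 0.0116% (0.000293 to 0.0645) of cells. Shallower cells were left out, from 104 in organoid library 1 to 6615 in assembloid library 1. Median depths before thinning were 3415 to 35231.5 UMIs in the epithelium and 13266 and 14865 in the fibroblasts. Intervals cover counting error only, and the share of cells that free RNA adds at this depth was not measured.

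The level was also taken among cells with a UMI of a marker of proliferating, differentiated or stem cells. Among tissue cells with a UMI of Mki67, a marker of cycling cells, and none of Krt20, a marker of mature colonocytes, the summed Hoxb3 to Hoxb8 level was 5.29 and 5.07 CPM. Among tissue cells with Krt20 and no Mki67 it was 1.57 and 1.06 CPM. In tissue cells with a UMI of Lgr5, the stem cell receptor, it was 13.4 and 6.93 CPM, on 62 and 20 UMIs. In each tissue library the level was thus lowest in the Krt20 cells and highest in the Lgr5 cells, and all 6 values lay below every cultured library. The corresponding assembloid values were 41.6 and 53.1 CPM in Mki67 cells, 36.4 and 47.8 CPM in Krt20 cells and 59.4 and 70.8 CPM in Lgr5 cells. In organoids the Mki67 cells held 72.8 and 153 CPM and the Lgr5 cells 76.1 and 157 CPM, and no value is given for Krt20 cells without Mki67, of which there were under 20 in each library. Hoxb13 had the reverse order in tissue, at 178 and 200 CPM in Lgr5 cells, 225 and 233 CPM in Mki67 cells and 262 and 289 CPM in Krt20 cells. These classes overlap, rest on 1 or more UMIs of a marker in libraries of different depth and were chosen after the values were seen. The share of cells that free RNA of the markers adds to them was not measured, and no test was made between them.

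Cells with and without a UMI of the middle Hoxb genes were then set side by side for Hoxb13, as a description of each library. In cells thinned to 10000 UMIs, Hoxb13 was found in 30.1% (27.7 to 32.6) of assembloid library 1 cells with a Hoxb3 to Hoxb8 UMI and in 39.1% (37.6 to 40.6) of those without. In assembloid library 2 the shares were 20.2% (17.9 to 22.6) and 43.0% (41.2 to 44.8). In organoids they were 38.5% (36.4 to 40.7) and 48.8% (46.9 to 50.8) in library 1, and 19.2% (17.5 to 21) and 37.1% (34.6 to 39.6) in library 2. In each of the 4 cultured libraries the share was smaller among the cells that held a middle Hoxb UMI. The intervals cover counting error over the cells of 1 library, no test was made, and the share that free RNA gives at this depth was not measured. The tissue libraries had 33 and 18 cells with a middle Hoxb UMI, of which 69.7% (51.3 to 84.4) and 94.4% (72.7 to 99.9) held Hoxb13, beside 86.0% and 87.9% of the cells without.

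Genes that act with or on Hox genes and proteins were counted by list, and each count stands beside the 48.9% of all genes called in assembloids and the 46.9% called in organoids. Of 3 tested genes of the ParaHox and Cdx list, which pattern the gut endoderm, Cdx1 was called lower in assembloids (88.7 against 236 CPM as group means, log2 fold change -1.02, SE 0.24). In organoids Cdx2 was called higher (97.6 against 50.4 CPM, 1.21, SE 0.35) and Pdx1, a foregut gene, lower on 25 UMIs. Of the 9 TALE genes, whose products bind DNA together with Hox proteins, 3 were called higher and 4 lower in assembloids and 3 and 3 in organoids. Meis2 was higher in both cultures (4.12 and 1.59 against 0.059 CPM as group means). By library Meis2 was at 6.35 and 1.88 CPM in assembloid epithelium, where fibroblasts of the same libraries held 344 and 291 CPM, and at 1.07 and 2.10 CPM in organoids, which held no fibroblasts by the gate. The part of carried-over stromal RNA in the assembloid values was not tested. Of 14 genes of Polycomb and trithorax complexes, which hold Hox genes silent or active, 5 were called higher and 2 lower in assembloids, a share near that of all genes, and 8 and 1 in organoids. Ezh2, the Polycomb methyltransferase, stood at 105 CPM in assembloids, 157 CPM in organoids and 52.3 CPM in tissue, with log2 fold changes of 1.42 (SE 0.27) and 1.83 (SE 0.28).

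Non-coding genes of the clusters were called as well. Hottip, beyond Hoxa13, fell from 12.1 CPM in tissue to 1.21 CPM in assembloids (log2 fold change -2.94, SE 0.30) and 1.15 CPM in organoids (-3.14, SE 0.30). Hoxb5os, which overlaps Hoxb5 and Hoxb6 on the other strand, rose from 0.0832 CPM to 1.85 CPM (4.83, SE 0.60) and 3.14 CPM (5.37, SE 0.60). Use of the strand in counting is not given in the sources used here, so reads of such pairs may not have been told apart. Beside the same shares of all genes (48.9% and 46.9%), of 5 tested non-coding genes 3 were called higher and 2 lower in assembloids, and 2 higher and 1 lower in organoids. Of 6 tested regional gut factors, 3 were called higher and 3 lower in assembloids and 2 and 2 in organoids. Nkx2-3, a mesenchymal gut factor, had no UMI in organoid or tissue epithelium and stood at 0.996 and 0.151 CPM in assembloid epithelium. Fibroblasts of the same assembloid libraries held 54.9 and 40.4 CPM of Nkx2-3, and library 1, with the higher level, was also the one with more carried-over stromal RNA (1.98% against 0.232%), whose part in these values was not tested.

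The balance of the whole code was then set out as the share of Hox UMIs that fall to paralog groups 1 to 4, 5 to 8 and 9 to 13. In tissue epithelium 79.8% ± 0.373 (SD, n = 2) of Hox UMIs came from groups 9 to 13 and 12.3% ± 0.616 from groups 5 to 8. In assembloid epithelium the shares were 68.0% ± 1.78 and 23.9% ± 0.154, and in organoids 52.8% ± 12.8 and 34.2% ± 6.50. The central share was higher and the posterior share lower in each of the 4 cultured libraries than in both tissue libraries. In organoids the 2 libraries were far apart, with posterior shares of 61.8% (exact interval 61.4 to 62.2) and 43.7% (43.2 to 44.3). These shares count molecules at transcript 3′ ends and are compared between libraries, not between genes.

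**Figure D3:**
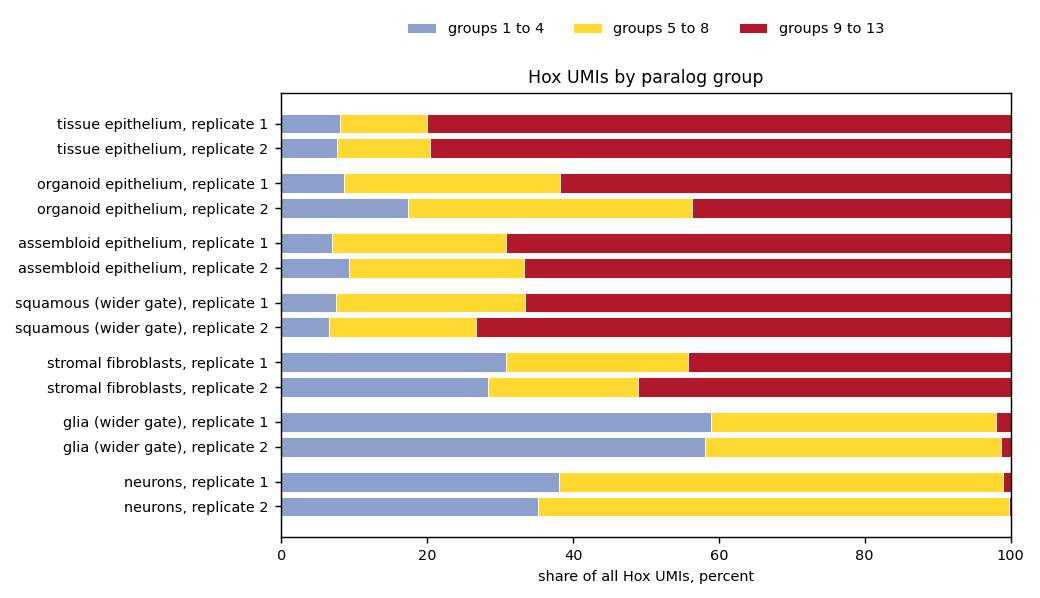
Share of Hox UMIs (percent) that come from paralog groups 1 to 4, 5 to 8 and 9 to 13, one bar per library and gated class. The posterior groups make up 79.6% to 80.1% in tissue epithelium and at most 1.99% in neurons and glia.

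In the stroma the classes differed in code. The 7647 and 8646 fibroblasts drew 29.5% ± 1.74 (SD, n = 2) of their Hox UMIs from groups 1 to 4 and 47.6% ± 4.81 from groups 9 to 13. The fixed gate found 26 and 41 neurons, which drew 36.6% ± 2.00 and 62.8% ± 2.59 of their Hox UMIs from groups 1 to 4 and 5 to 8, and 0.609% ± 0.591 from groups 9 to 13. For glia and squamous cells that gate left under 20 cells in at least 1 library, so a wider gate chosen after the data were seen was used, with 72 and 71 glia and 731 and 33 squamous cells. In it, markers of other classes counted only from 3 UMIs, and the epithelial list did not bar squamous cells. Glia needed a UMI of Sox10 and none of Elavl3 or Elavl4. The part of epithelial or mixed cells in the squamous class was not tested. Glia drew 58.5% ± 0.589 from groups 1 to 4 and 1.67% ± 0.449 from groups 9 to 13. Squamous cells drew 70.0% ± 4.81 from groups 9 to 13. Neurons expressed the neuronal marker Elavl4 at 800 and 768 CPM, and glia held Sox10 at 301 and 339 CPM. Each class was gated by markers of its own type, so levels of such markers are no check of identity. Squamous cells held Krt5 at 2555 and 2988 CPM, and Epcam at 660 and 625 CPM although the study describes these libraries as EpCAM-negative cells, while Krt20 was at 0.290 and 0 CPM. The fibroblast marker list, at 8256 and 11589 CPM in fibroblasts, was at 419 and 494 CPM in neurons, 668 and 755 CPM in glia and 441 and 495 CPM in squamous cells, and its part in their Hox levels was not tested.

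Fibroblasts expressed members of all 4 clusters. Hoxa10 stood at 46.2 and 49.8 CPM, Hoxb2 at 40.2 and 29.6 CPM, Hoxb4 at 27.9 and 23.6 CPM and Hoxd13 at 12.6 and 15.3 CPM. Hoxd8 was at 5.86 and 3.19 CPM, Hoxd9 at 1.11 and 0.564 CPM, Hoxd10 at 2.59 and 2.95 CPM and Hoxd12 at 0.124 and 0.113 CPM. The Hoxc genes differed more between the libraries: their summed level was 4.37 CPM in library 1 and 0.616 CPM in library 2. Hoxc6 was at 1.04 and 0.150 CPM, Hoxc9 at 0.479 and 0.0752 CPM and Hoxc10 at 1.45 and 0.105 CPM, each higher in library 1. With 1 library each way, this difference between the libraries has no replicate check.

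In neurons, genes of paralog groups 2 to 8 were called higher than in fibroblasts, with members of each cluster among them. Hoxa5 stood at 270 and 388 CPM in neurons against 5.19 and 3.77 CPM in fibroblasts (log2 fold change 5.84, SE 0.37, edgeR adjusted p = 1.1e-05). Hoxc4 stood at 49.8 and 67.5 CPM against 0.572 and 0.188 CPM (6.91, SE 0.88, edgeR adjusted p = 0.00075). Hoxb5 stood at 79.1 and 69.7 CPM against 5.06 and 4.24 CPM (3.62, SE 0.37, edgeR adjusted p = 0.00017). In each case both neuron libraries lay above both fibroblast libraries, as for 35.9% of all genes tested, while 36.1% lay wholly below and 72% were apart in either direction. Hoxa2, at 26.4 and 25.3 CPM against 0.410 and 0.316 CPM, and Hoxa3, at 35.2 and 44.3 CPM against 2.56 and 1.88 CPM, were higher by 5.77 (SE 0.73) and 3.81 (SE 0.44). Hoxd4, at 55.7 and 48.6 CPM, and Hoxd3, at 23.4 and 10.6 CPM, were higher by 5.71 (SE 0.86) and 5.69 (SE 1.14). Hoxa4 and Hoxa6 were called higher on 27 and 16 neuron UMIs. Hoxb6, Hoxb7 and Hoxb8 were higher by 2.03, 1.82 and 1.34, and without stromal library 2 these calls were lost, at 0.70, 1.52 and 0.61 (edgeR adjusted p = 0.68, 0.15 and 0.60). Hoxb2, Hoxb3 and Hoxb4 were not called, at 54.7, 20 and 55.1 CPM in neurons against 34.9, 16.7 and 25.8 CPM in fibroblasts as group means. Hoxc5, too rare to be tested, held 8 UMIs in neurons (11.7 and 8.44 CPM) and 22 in all fibroblasts.

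The 5′ genes were absent or nearly so in the same cells. Hoxa11 stood at 22.9 and 25.1 CPM in fibroblasts and had no UMI in neurons, which makes it at least 6.52-fold lower. Hoxa13, Hoxa9, Hoxd11 and Hoxb9 also had no UMI in neurons and were at least 3.28-fold, 3.13-fold, 2.62-fold and 2.32-fold lower. Hoxa10 held 3 neuron UMIs and was 13-fold lower (exact counting interval 4.46 to 63.3), against 46.2 and 49.8 CPM in fibroblasts. Hoxd13 had 1 neuron UMI and was not called.

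Of 27 Hox genes tested, 12 were called higher and 6 lower in neurons than in fibroblasts, where 27.7% of all genes were called (11.7% higher, 16.1% lower). The filter on low counts passed a gene on its level in a single class of the fit. Genes low in fibroblasts could thus enter the test through the neurons where they were high. Without that filter all 18 calls were kept, and 3458 of 26188 genes were called. The median log2 fold change was 0.75, beside -0.33 over all genes, and the TMM shift against library size was -0.38. Classes of a library come from the same culture, and a fit with the replicate as a block gave the same side of the threshold for all 18. Neurons numbered 26 and 41 cells, and the part of cell number in these calls was not tested. Without either stromal library the stromal classes had no replicate, and some calls were lost. Hoxb9 was also lost without either assembloid epithelium library, which enter the same fit (edgeR adjusted p = 0.098 and 0.093). Those called in every alternative were Hoxa2, Hoxa3, Hoxa5, Hoxa10, Hoxb5 and Hoxc4.

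**Figure D4:**
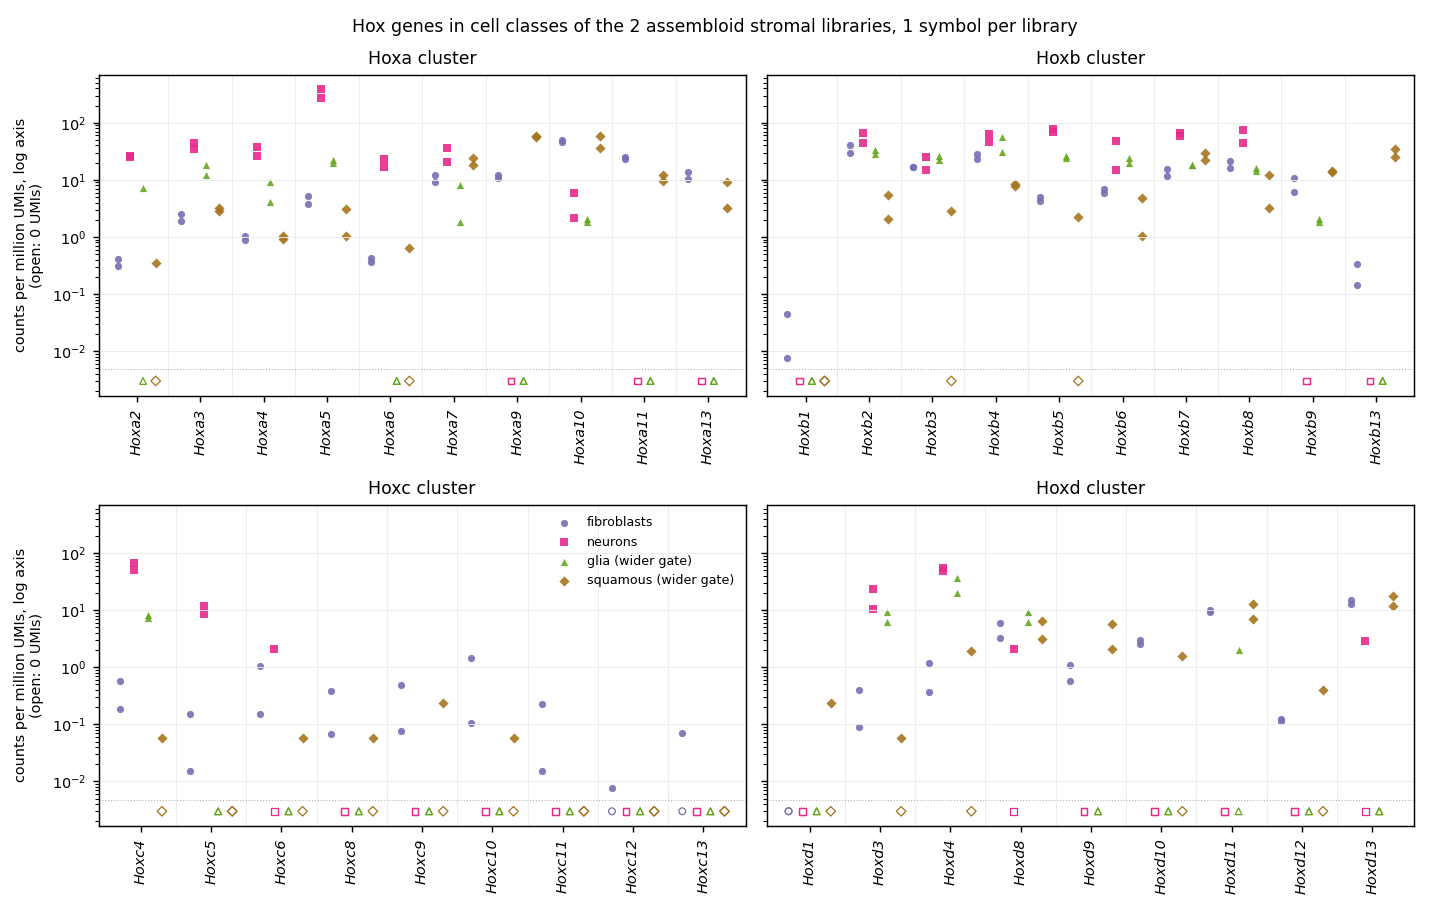
Level of Hox genes (CPM) in fibroblasts, neurons, glia and squamous cells of the 2 assembloid stroma libraries, by cluster and paralog number on a logarithmic axis, with 1 symbol per library and open symbols for 0 UMIs. Neurons and glia show most of their signal in groups 1 to 8, fibroblasts and squamous cells also in groups 9 to 13.

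In glia, genes of paralog groups 3 to 6 were called higher than in fibroblasts. Hoxd4 stood at 36.6 and 20.1 CPM in glia against 1.17 and 0.376 CPM in fibroblasts (log2 fold change 5.12, SE 0.75, edgeR adjusted p = 0.00032). Hoxa10, with 2 UMIs in glia, was 25-fold lower than in fibroblasts (exact counting interval 6.91 to 206). These 2 calls held in every alternative. Hoxc4, at 8.12 and 7.30 CPM, Hoxd3, Hoxb5, Hoxb6, Hoxa3, Hoxa4 and Hoxa5 were also called higher, by 1.73 to 4.88. Hoxa11, Hoxa13 and Hoxa9 had no UMI in glia and were at least 8.32-fold, 4.19-fold and 3.99-fold lower. Hoxd11 was called lower on 1 UMI, a ratio of 10.0 (1.80 to 396), and this call was lost with the replicate as a block (edgeR adjusted p = 0.0504) and by DESeq2 (adjusted p = 0.0932). In all, 8 genes were called higher and 5 lower of 27, while 20.9% of all genes were called (10.6% higher, 10.2% lower), and the median was -0.25 against -0.19 over all genes. Here too a gene could pass the filter on low counts through the class where it was high. Without stromal library 1, 4 of these genes were called, and without library 2, 2. Hoxa5 was at 22.3 and 20.1 CPM in glia and at 270 and 388 CPM in neurons, a difference that was not tested.

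Squamous cells had a posterior code with Hoxb13. Hoxb13 stood at 34.9 and 25.2 CPM in squamous cells and 0.332 and 0.143 CPM in fibroblasts (log2 fold change 7.24, SE 0.39, edgeR adjusted p = 3.8e-07). Hoxa9 stood at 58.6 and 56.7 CPM against 12.3 and 10.7 CPM (2.54, SE 0.24, edgeR adjusted p = 7.0e-06). Hoxb2 was lower, at 5.40 and 2.10 CPM against 40.2 and 29.6 CPM (-2.64, SE 0.37), and so was Hoxb3, at 2.84 and 0 CPM against 16.7 CPM in both libraries (-2.55, SE 0.47). These 4 calls held in every alternative. Hoxa7, Hoxb7, Hoxb9 and Hoxd9 were called higher and Hoxb4 lower, and each of these calls was lost without stromal library 1, those of Hoxa7, Hoxb7 and Hoxb9 also without library 2. Hoxb9, at 14.5 and 13.7 CPM against 10.9 and 6.20 CPM in fibroblasts, was also lost with the replicate as a block (edgeR adjusted p = 0.052). Under the fixed gate, which left 83 squamous cells in library 1, Hoxb9 lay below the fibroblasts of that library, at 5.62 CPM on 9 UMIs, so its direction depends on the wider gate. Hoxb13, Hoxa9, Hoxa7, Hoxb7 and Hoxd9 lay above them and Hoxb2, Hoxb3 and Hoxb4 below them under the fixed gate too. Of 27 genes 6 were called higher and 3 lower, while 39.7% of all genes were called (17.5% higher, 22.2% lower), with medians of 0.08 and -0.12. With library-size scaling the split was 5 higher and 6 lower. Without stromal library 1, which held 731 squamous cells, 4 genes were called, and without library 2, which held 33, 5.

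Among the partner genes, Meis2, Meis1 and Pbx3 were called lower than in fibroblasts in neurons, glia and squamous cells. Meis2 stood at 14.9 CPM in neurons, 28.6 CPM in glia and 42.2 CPM in squamous cells against 311 CPM in fibroblasts as group means. Of the 9 TALE genes, 3 were called in neurons, 4 in glia and 7 in squamous cells, all of them lower, while 27.7%, 20.9% and 39.7% of all genes were called in these comparisons (16.1%, 10.2% and 22.2% lower). Tbx3, a T-box factor, was higher in all 3 classes, at 370 CPM in neurons, 101 CPM in glia and 36.3 CPM in squamous cells against 9.57 CPM, and so was Sox2, a foregut and glial factor, at 31.1, 356 and 29.2 CPM against 1.11 CPM. These are examples, and other regional factors lay the other way. Nkx2-3 was at 0 and 3.65 CPM in glia and 1.63 and 4.20 CPM in squamous cells. In the trophocyte-list fibroblasts described below it was at 87.2 and 123 CPM. Isl1 was at 2.03 and 0 CPM in glia, against 11.8 and 11.5 CPM in those fibroblasts. Calls over the whole regional list in these classes are not reported here. Hoxa11os, named as the opposite strand of Hoxa11, had no UMI in neurons and was at least 12.8-fold lower. Not all non-coding genes lay lower in these classes. Hoxb3os was at 24.4 and 25.5 CPM in glia, against 4.86 and 3.47 CPM in the same trophocyte-list fibroblasts.

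Within the fibroblasts, subsets differed in the Hoxb cluster. Telocytes lie beneath the upper epithelium and trophocytes near the crypt base. The marker lists of these types gave 147 and 212 telocyte-list cells and 4919 and 6117 trophocyte-list cells. The other 2581 and 2317 fibroblasts fell in neither subset and entered the same fit as a class of their own. The summed Hoxb3 to Hoxb8 level was 12.8 and 5.01 CPM in telocyte-list cells and 104 and 93.2 CPM in trophocyte-list cells. In the other fibroblasts it was 80.7 and 53.5 CPM. Hoxb3 stood at 0.825 and 1.00 CPM against 18.6 and 20.5 CPM (log2 fold change -4.45, SE 0.33, edgeR adjusted p = 0.0024). Hoxb8 stood at 1.24 and 0.250 CPM against 24.6 and 19 CPM (-5.17, SE 0.60, edgeR adjusted p = 0.0071). Hoxb2 stood at 6.18 and 1.25 CPM against 45.1 and 35.9 CPM (-3.72, SE 0.58, edgeR adjusted p = 0.017). For these 3 genes the groups did not overlap, with telocyte-list cells lower, as for 30.1% of all genes tested (59.1% in either direction, 29% higher). Hoxb4, Hoxb5 and Hoxb7 had log2 fold changes of -3.34 to -2.91, and Hoxb6 held 1 UMI in telocyte-list cells, which made it 45.6-fold lower (exact counting interval 8.17 to 1803). Hoxb9, at 1.65 and 0 CPM against 11.1 and 6.70 CPM, missed the threshold (edgeR adjusted p = 0.051).

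Hoxa9 and Hoxa11 went the other way. Hoxa9 stood at 25.1 and 23.5 CPM in telocyte-list cells against 10.4 and 7.56 CPM (log2 fold change 1.37, SE 0.18, edgeR adjusted p = 0.011), and Hoxa11 at 30.9 and 41.8 CPM against 19.5 and 21.1 CPM (0.79, SE 0.16, edgeR adjusted p = 0.034). Hoxa10 and Hoxa13 were not called, at 58.9 and 17.9 CPM in telocyte-list cells against 45.0 and 10.9 CPM as group means (0.32, SE 0.12, and 0.65, SE 0.23). Hoxd13 was lower, at 3.30 and 2.25 CPM against 13.6 and 18.4 CPM (-2.65, SE 0.31, edgeR adjusted p = 0.0070). Of 32 genes tested, 2 were called higher and 8 lower, while 10.2% of all genes were called (4.41% higher, 5.8% lower), and the median was -1.43 against -0.07 over all genes. With the replicate as a block 15 Hox genes were called, and 3742 of all genes in place of 1553. All 10 calls held in each alternative that could be fitted, and leaving out a library could not be. Meis1 was also lower in telocyte-list cells, at 16.5 against 61.5 CPM (-1.95, SE 0.15), and so was Hoxb5os, at 0.456 against 26.6 CPM, a 57.1-fold difference (exact counting interval 19.5 to 277) on 3 UMIs in telocyte-list cells.

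**Figure D5:**
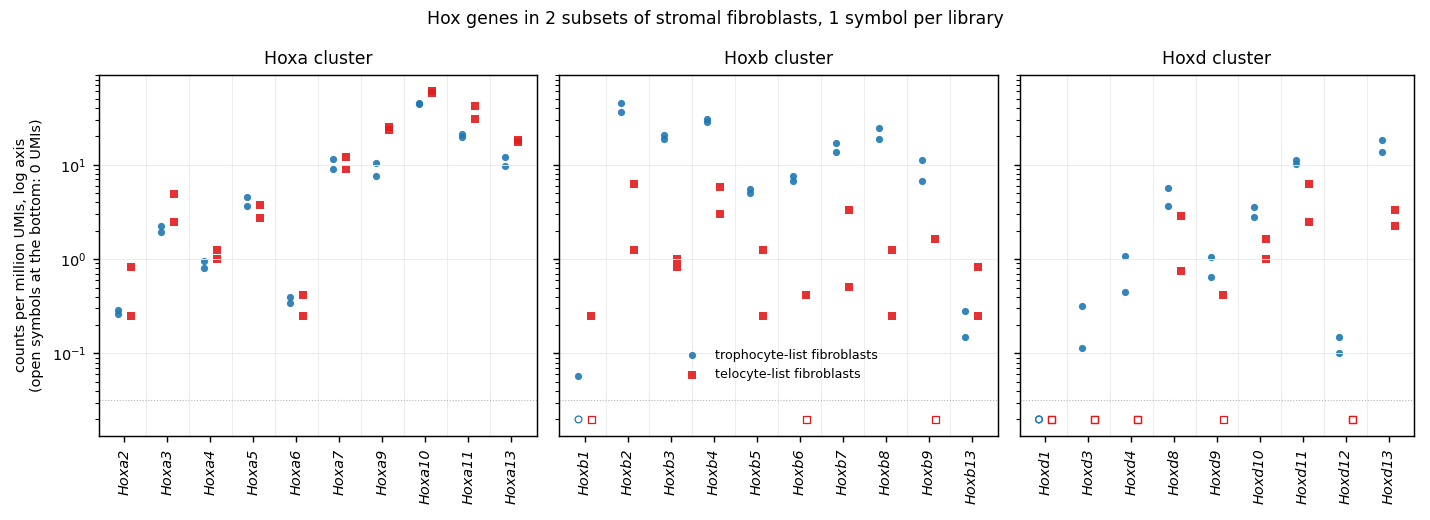
Level of Hox genes (CPM, logarithmic axis) in telocyte-list and trophocyte-list fibroblasts of the 2 assembloid stroma libraries, 1 symbol per library. From Hoxb2 to Hoxb8 the telocyte-list points lie below the trophocyte-list points, and for Hoxa9 and Hoxa11 above them.

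The 176 and 78 fibroblasts found in the assembloid epithelial libraries allowed a comparison of the tissue layers within a library. Hoxb13 stood at 57.5 CPM in epithelium and 4.97 CPM in fibroblasts as means over 2 libraries (log2 fold change -3.60, SE 0.47, edgeR adjusted p = 0.00041). Hoxb9 stood at 39.0 CPM against 4.11 CPM (-3.21, SE 0.58). Hoxb2 was higher in fibroblasts, at 18.7 against 0.601 CPM (4.77, SE 0.47), as was Hoxd11, at 11.6 against 0.612 CPM (4.18, SE 0.54). Hoxd9, Hoxd10, Hoxa11, Hoxb3, Hoxb4 and Hoxb8 were also called higher in fibroblasts, and Hoxa9 and Hoxb6 lower. Of 27 genes 8 were called higher and 4 lower, while 46.5% of all genes were called (23.1% higher, 23.3% lower), with medians of 0.00 and -0.18. The calls of Hoxb2 and Hoxb13 held in every alternative, and that of Hoxd11 in the 11 alternatives in which it was tested. Without assembloid epithelium library 1 the calls of Hoxa9, Hoxa11, Hoxb4 and Hoxd10 were lost. Without library 2 those of Hoxb9 (log2 fold change -2.35) and Hoxd9 were lost, and Hoxb6 was lost without either. Hoxb3 and Hoxb8 were not called with the replicate as a block (edgeR adjusted p = 0.051 and 0.062). They were lost in 12 and 7 alternatives in all. These fibroblasts held 837 and 788 CPM of the epithelial marker list, against 13407 and 15860 CPM in the epithelium, and its part in their Hoxb13 and Hoxb9 levels was not tested.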

How the data were processed

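Droplet single-cell RNA was profiled with the 10x Genomics 3′ v3 kit in 8 libraries (2 per group). The authors deposited raw UMI counts per gene and barcode, and their processing notes name Cell Ranger 6 and mm10. The file headers name different Cell Ranger versions for the stromal and the epithelial libraries, so levels were not tested between these. Whether introns were counted, and whether strand was used, is not given in the sources used here. Of the 39 Hox genes, 9 share exon bases with a gene on the same strand and 14 overlap a gene on the other strand, and reads of such pairs may be split or lost.

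A cell was kept if it held 500 genes or more and no more than 10% of its UMIs were mitochondrial, as the study's methods state for stromal cells. The same cut-offs were used here for the epithelial libraries, for which the methods mention filtering without giving cut-offs. This left 29410 and 7722 cells in the assembloid, 4872 and 8034 in the organoid and 4692 and 4310 in the tissue epithelial libraries. The total the study states after its own filtering is under 0.5 times as large for assembloids and larger for organoids and tissue, so the cells used here are not those the authors kept, and the gap is widest in a group that 2 of the 3 epithelial comparisons use. Each cell went to the class with the most detected markers, if these were at least 3 of 10 and no other class had more than 0.5 times as many. No doublet caller was run, and doublets of 2 classes are left out by the gate only in part. UMIs were summed per library and class (at least 20 cells) and tested with edgeR 4.0.16 in R 4.3.3 (quasi-likelihood, TMM, filterByExpr, Benjamini-Hochberg over all genes, adjusted p under 0.05). A class has 2 libraries, and p-values measure the spread between libraries of the same class, pooled over all classes in the fit. Leaving out a library leaves its classes without a replicate, and the spread then comes from the other classes in the fit. For neurons, glia and squamous cells without a stromal library, these are the assembloid epithelial classes alone. Groups of 2 against 2 allow no exact permutation test at this threshold. In the fits of cell classes filterByExpr passed a gene on its level in a single class sum. A gene could thus enter a comparison through the class where it was high. The fitting script was tested on simulated data. Python 3.11.15, NumPy 2.4.6, SciPy 1.17.1, pandas 2.3.3 and matplotlib 3.10.9 were used for sums, intervals (exact Clopper-Pearson, 95%) and figures. A group with no UMI was given a floor of 3 UMIs over the group. These bounds, and the ratios with exact counting intervals, use UMIs pooled over the libraries of a group and scaled by library size. They are therefore not on the TMM scale of the log2 fold changes, and their intervals leave out the spread between libraries.

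Named with values were the Hox genes with at least 100 UMIs or a call, and called genes of 5 lists of cofactors, regulators and regional genes were reported by count with examples. Some genes of these sets are not reported here. The members, lists and tests were chosen with earlier results of these data known. The wider gate for glia and squamous cells, the Mki67, Krt20 and Lgr5 classes, the thinning to 10000 UMIs and the scaling by library size were chosen after seeing the data. Alternatives were DESeq2 1.42.0, no filter on low counts, the replicate as a block, other gates and cell filters, and leaving out each library.

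Replicate numbers pair the classes of a culture, since both come from the same library. Deviations from the group means correlated at 0.126 between fibroblasts and neurons of the stromal libraries and at 0.107 between fibroblasts and epithelium of the assembloid epithelial libraries.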

Additional observations from a re-analysis of the deposited data

Results flagged for a closer look

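Classes too small for any comparison held some Hox genes far above the fibroblasts of the same library, on at least 10 UMIs and at 5 or more times the level. In the 28 endothelial cells of assembloid stroma library 2, Hoxd9 stood at 80.9 CPM (44 UMIs) against 0.564 CPM in fibroblasts, Hoxd8 at 68.1 CPM (37 UMIs) against 3.19 CPM and Hoxd10 at 31.3 CPM (17 UMIs) against 2.95 CPM. Hoxb7 stood at 62.5 CPM and Hoxa7 at 49.7 CPM in the same cells, against 11.8 and 9.0 CPM. In the 24 epithelial cells of stroma library 1, Hoxb13 stood at 145 CPM (73 UMIs) against 0.332 CPM, and Hoxa9 at 75.4 CPM (38 UMIs) against 12.3 CPM. Each class was present in 1 library only at this size, so none of these values has a replicate check.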

How the results depend on the processing

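No called gene reversed. Under settings that keep all libraries, 7 to 11 Hox genes were called for organoids against assembloids and 10 to 15 for glia. Against the main fit, the number called moved by less than 1.5 times in every comparison except telocyte-list against trophocyte-list fibroblasts. There the count ranged from 10 to 15, and all genes called numbered 1553, against 3742 with the replicate as a block, 2627 by DESeq2 and 1975 without a filter on low counts. Leaving out each library in turn gave 16 to 20 Hox calls for assembloid against tissue, 13 to 20 for organoid against tissue, 6 to 9 for organoid against assembloid, 6 to 18 for neurons, 2 to 14 for glia, 4 to 11 for squamous cells and 4 to 11 for fibroblasts against epithelium. Called in every setting in which they were tested were 16 of 20, 13 of 19, 2 of 8, 6 of 18, 2 of 13, 4 of 9, 3 of 12 and, for the subsets, 10 of 10.

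The share of groups 9 to 13 in tissue epithelium was 77.3% with up to 20% mitochondrial UMIs. The share of cells with a UMI grows with depth, so it moved. At 5000 UMIs and without thinning, Hoxb13 was found in 22.1% and 29.4% of assembloid, 22.2% and 45.3% of organoid and 65.8% and 55.6% of tissue cells, and Hoxb3 to Hoxb8 in 16.5% and 24.3%, 34.2% and 55.9%, and 0.979% and 1.42%.

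In the epithelial groups, deviations of libraries with the same replicate number correlated at -0.0217, 0.0263 and -0.0201. Classes that share a library correlated at no more than 0.126, so these values cannot tell whether such libraries are paired. The replicate block there called 9221, 8817 and 9876 of all genes, against 9378, 8987 and 10029, and lost Hoxd9 between organoids and assembloids (edgeR adjusted p = 0.052). Apart from this and the losses given with the results, the block lost no Hox call. Hoxd3 in both cultures and Hoxd8 in assembloids were also lost at up to 5% mitochondrial UMIs, Hoxb8 between the cultures under 3 other cell filters, Hoxd9 there and Hoxb9 in squamous cells by DESeq2 and with library size alone, Hoxd9 at up to 5% mitochondrial UMIs and Hoxb9 with at least 2000 UMIs per cell.

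Not run were the subsets without a library, which leaves no residual degrees of freedom, neurons at up to 5% mitochondrial UMIs, which leaves under 20 cells, and gates of 2 or 5 markers for glia and squamous cells. Neurons and glia held 26 to 72 cells per library and squamous cells 731 and 33, and the part of depth in their calls was not tested.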
